A study of Homo sapiens with 6 samples.

Results

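The splicing factors described here are 41 genes in 3 families: 13 SR proteins, 20 hnRNPs (with PTBP1, PTBP2 and PTBP3) and 8 regulated splicing factors (ESRP1, ESRP2, RBFOX2, MBNL1, MBNL2, MBNL3, QKI and CELF1). They were taken by name, and a gene was measured where its mean over the 6 libraries was at least 0.5 FPKM. FPKM relates the sequenced fragments of a transcript to its length in kilobases and to all fragments mapped in a library, so levels are per length and can be compared between genes. Of the 41 genes, 39 passed, among 14770 genes that passed of 60612 listed.

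The libraries came from total RNA of MDA-MB-231 cells, an established triple-negative breast cancer line, at day 3. The control group, Sh-NC, carried a control short hairpin RNA and is labelled WT, and the Sh-YAP1 group carried a hairpin against YAP1, the transcriptional co-activator of the Hippo pathway. Both groups are labelled as without treatment, and each had 3 libraries. The study describes the cells as stably expressing the hairpins. Its general methods describe transfection of hairpins and name no selection of stable cells, so how the hairpins were kept is unclear. The study states in general that its data came from independent experiments and speaks of YAP1 hairpins in the plural. Neither statement is tied to these libraries, so p-values measure the spread between them, which may be technical.

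SR proteins bind short enhancer sequences in exons and help the spliceosome to use the splice sites beside them. hnRNPs coat new transcripts and often block exons that SR proteins would promote, so the balance of the 2 families sets which exon versions of a gene are made. ESRP1 and ESRP2 mark epithelial splicing, RBFOX2 and QKI act in mesenchymal cells, and the muscleblind proteins MBNL1 to MBNL3 and CELF1 act against each other on many shared exons. Many of these factors also limit their own level by splicing a part of their own transcripts into forms that nonsense-mediated decay destroys. The comparison asks whether such regulators changed enough after YAP1 knockdown to go with a switch of transcripts.

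YAP1 was at 28.1, 26.2 and 22.9 FPKM in the Sh-NC libraries and at 3.35, 2.67 and 2.58 FPKM in the Sh-YAP1 libraries, a log2 fold change of -2.79 ± 0.12 (SE) with an adjusted p of 0.0018 in limma. All 6 libraries thus matched their labels. The libraries summed to between 467493 and 475116 FPKM, and between 13037 and 13219 genes reached 1 FPKM. The number of fragments behind the values is unknown. Of 8 markers of the line, all were measured and their summed level was 2728 to 3365 FPKM in Sh-NC and 2667 to 2946 in Sh-YAP1, with AXL, a receptor tyrosine kinase, called lower (log2 fold change -0.35, adjusted p 0.039, and 0.0741 to 0.131 with any 1 library left out). Of 8 luminal or HER2 markers, ESR1, PGR and CDH1 stayed under 0.5 FPKM in every library, and the summed level was 192 to 222 FPKM in Sh-NC and 145 to 150 in Sh-YAP1, most of it KRT19 (log2 fold change -0.50, adjusted p 0.0273, and 0.0584 to 0.0942 with any 1 library left out). CD3E, which defines T cells, was listed at 0, and the 6 blood and stroma markers summed to 3.14 to 4.82 FPKM.

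No splicing factor was called changed. None of the 39 measured genes had an adjusted p under 0.05 in limma, with the adjustment made over all genes tested, beside 3.38% of all genes (499 of 14770). An unadjusted p under 0.05 was reached by 8 of the 39 members (20.5%), and by 21.9% of all genes, so the members' share was near the background. The groups did not overlap for 13 members (33.3%), and for 29.4% of all genes. Of these 13 members, 9 were lower in Sh-YAP1 (23.1% of the members, beside 14.7% of all genes) and 4 were higher (10.3%, beside 14.6%). The median log2 fold change, on the scale of log2(FPKM + 1), was -0.07 over the members and -0.001 over all genes tested, and 26 members had a negative and 13 a positive value. Among the 3653 genes that averaged 20 FPKM or more, which include 31 members, 59.0% had a negative value, with a median of -0.05, and 71.0% of those 31 members did, with a median of -0.09. At that level the groups did not overlap, with Sh-YAP1 lower, for 25.8% of the members and for 23.6% of all genes, so the members' share of lower genes was near that background. Fewer cells of a kind and less RNA per cell cannot be told apart in such bulk libraries.

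The sizes were small. The log2 fold changes of the members ran from -0.39 for MBNL2 to 0.41 for MBNL3, and the ratio of the group means in FPKM ran from 0.740 to 1.504. A size of 1 on the log2(FPKM + 1) scale, which at low levels stands for more than a 2-fold change in FPKM, was reached by 0 members and by 125 of all genes. The 95% interval lay wholly between -1 and 1 on this scale for 36 of the 39 members (92.3%) and for 92.1% of all genes. It lay between -0.5 and 0.5 for 28 members (71.8%) and for 53.1% of all genes. The 3 members whose interval reached past -1 or 1 were SRSF4, SRSF6 and HNRNPH2, and in each of them libraries of the same group differed by more than 2-fold.

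**Figure D1:**
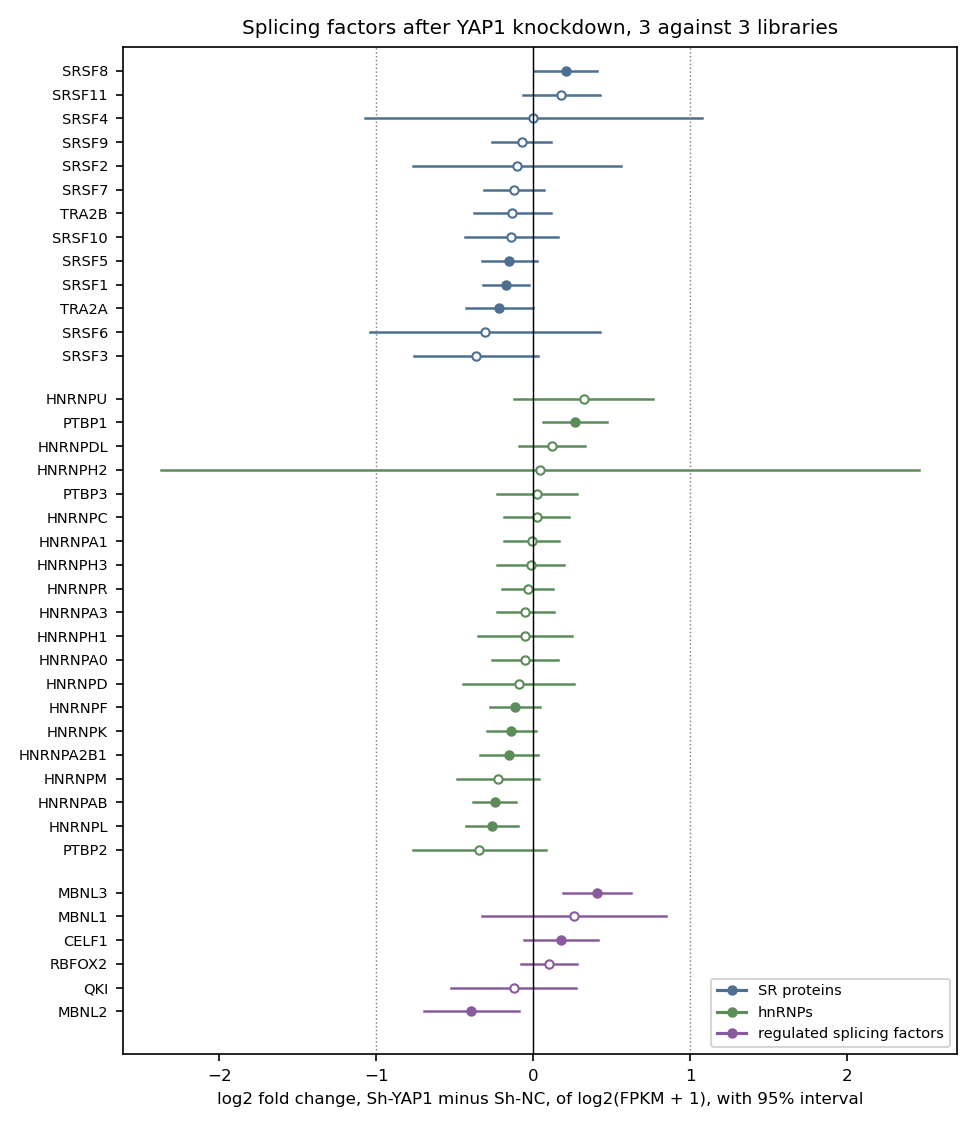
Log2 fold change (Sh-YAP1 minus Sh-NC, on log2(FPKM + 1)) of each of the 39 measured splicing factors, with its 95% interval from limma, grouped by family; filled points mark the 13 members whose groups do not overlap and dotted lines mark -1 and 1. All points lie between -0.39 and 0.41, and only the intervals of SRSF4, SRSF6 and HNRNPH2 cross a dotted line.

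Among the SR proteins, 10 of 13 had negative values and the median log2 fold change was -0.13. Their summed level was 648, 741 and 742 FPKM in the Sh-NC libraries and 599, 666 and 625 FPKM in the Sh-YAP1 libraries, so the lowest Sh-NC library lay below the highest Sh-YAP1 library. SRSF9 was the most abundant, at 108, 107 and 106 FPKM in Sh-NC and 93.4, 111 and 100.4 FPKM in Sh-YAP1, and its groups overlapped (log2 fold change -0.07). SRSF8, which arose as a retrocopy of SRSF2 and was the least abundant, was at 8.74, 8.30 and 8.11 FPKM in Sh-NC and at 10.2, 10.3 and 9.03 FPKM in Sh-YAP1. Each Sh-YAP1 library was above each Sh-NC library, yet the adjusted p was 0.214 (log2 fold change 0.21, exact permutation p 0.1, the smallest that 3 against 3 libraries allow).

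SRSF1, the first SR protein described and a known oncogene, had the tightest values of the family. It was at 43.4, 43.3 and 44.4 FPKM in Sh-NC and at 37.2, 39.4 and 39.5 FPKM in Sh-YAP1. The groups did not overlap, and the Sh-YAP1 mean was 0.885 times the Sh-NC mean (log2 fold change -0.17, adjusted p 0.176). SRSF5 (log2 fold change -0.15) and TRA2A (log2 fold change -0.22), an SR-like activator of exons, were also lower without overlap, with adjusted p of 0.291 and 0.225. SRSF3, the smallest SR protein, had the most negative value of the family (log2 fold change -0.36, adjusted p 0.26). It rested on a wide Sh-NC group of 87.7, 77.5 and 119 FPKM against 67.5, 69.1 and 80.8 FPKM in Sh-YAP1, and the groups overlapped. SRSF7, SRSF10, SRSF11 and TRA2B had log2 fold changes of -0.12, -0.14, 0.18 and -0.13, and their groups overlapped. Of these, SRSF10 had a wide Sh-NC group of 40.59, 45.75 and 32.75 FPKM.

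Among the hnRNPs, 14 of 20 had negative values and the median log2 fold change was -0.05, whereas after quantile normalization 11 had negative values and the median was -0.003. Together they summed to 2505, 2484 and 2573 FPKM in Sh-NC and to 2432, 2478 and 2347 FPKM in Sh-YAP1. HNRNPK, which binds cytosine-rich stretches and was the most abundant, was at 332, 343 and 370 FPKM in Sh-NC and at 317, 320 and 311 FPKM in Sh-YAP1. Its groups did not overlap, with an adjusted p of 0.273 (log2 fold change -0.14). HNRNPA2B1, HNRNPF and HNRNPK were each lower in all Sh-YAP1 libraries by a small amount, with log2 fold changes of -0.15, -0.12 and -0.14. With quantile normalization these became -0.044, -0.030 and -0.052. The groups were apart by 6.31 FPKM for HNRNPA2B1 and 12.15 FPKM for HNRNPK, but by only 0.33 FPKM for HNRNPF.

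The hnRNPs nearest to a call were HNRNPAB and HNRNPL. HNRNPAB, an A/B-type RNA-binding protein, was at 165, 163 and 161 FPKM in Sh-NC and at 134, 142 and 137 FPKM in Sh-YAP1, 0.843 times the Sh-NC mean (log2 fold change -0.24 ± 0.06, SE, adjusted p 0.0763). HNRNPL, which binds CA repeats and is known for regulating CD45 exons in T cells, was at 102, 109 and 102 FPKM in Sh-NC and at 82.0, 89.2 and 90.0 FPKM in Sh-YAP1 (0.833 times the Sh-NC mean, log2 fold change -0.26 ± 0.07, SE, adjusted p 0.0957). In both genes the 3 Sh-YAP1 libraries lay close together below the Sh-NC libraries, and the whole 95% interval lay on the negative side, from -0.38 to -0.11 for HNRNPAB and from -0.43 to -0.10 for HNRNPL. Neither passed the threshold once adjusted over all genes.

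The PTB proteins repress exons flanked by pyrimidine-rich sequence, and PTBP2, the neural form, is kept low in other cells because PTBP1 skips an exon of its transcript. PTBP1 was at 60.3, 66.2 and 63.2 FPKM in Sh-NC and at 84.0, 70.9 and 74.2 FPKM in Sh-YAP1. It was higher without overlap, with an adjusted p of 0.141 (log2 fold change 0.27 ± 0.08, SE). PTBP2, the least abundant hnRNP, was at 4.21, 6.30 and 6.74 FPKM in Sh-NC and at 3.79, 3.98 and 5.05 FPKM in Sh-YAP1, with overlap and an adjusted p of 0.311 (log2 fold change -0.34 ± 0.18, SE). PTBP3 had a log2 fold change of 0.03. The remaining hnRNPs had smaller values or wide groups: HNRNPM, whose groups overlapped, had a log2 fold change of -0.22, HNRNPD -0.09, HNRNPDL 0.12, HNRNPC 0.02, HNRNPR -0.03, HNRNPA0, HNRNPA3 and HNRNPH1 -0.05 each, HNRNPH3 -0.02 and HNRNPA1 -0.01. HNRNPA1 has many processed copies in the genome that could share its fragments, which makes its value uncertain by an amount that was not tested. Of these copies, HNRNPA1L2 was at 0.74, 12.7 and 18.8 FPKM in Sh-NC and at 0.86, 14.4 and 2.91 FPKM in Sh-YAP1. HNRNPA1L3 was at 14.4, 17.3 and 20.9 FPKM in Sh-NC and at 21.5, 18.0 and 17.1 FPKM in Sh-YAP1.

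The regulated splicing factors held the largest values in either direction. ESRP1 stayed between 0.02 and 0.08 FPKM and ESRP2 between 0.23 and 0.55 FPKM, so both epithelial regulators were under the minimum and were not tested, and ESRP2, with a mean of 0.363 FPKM, was the nearest gene outside it. MBNL3, with a mean of 2.34 FPKM, was the measured gene nearest to the minimum. It was at 1.97, 1.88 and 1.75 FPKM in Sh-NC and at 2.66, 2.77 and 2.99 FPKM in Sh-YAP1. Every Sh-YAP1 library was higher, 1.504 times in the mean, and MBNL3 had the smallest adjusted p of all members, 0.0657 (log2 fold change 0.41 ± 0.09, SE).

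MBNL2 went the other way. It was at 10.6, 14.0 and 12.6 FPKM in Sh-NC and at 10.2, 9.14 and 8.12 FPKM in Sh-YAP1, 0.740 times the Sh-NC mean (log2 fold change -0.39 ± 0.13, SE, adjusted p 0.141). The groups did not overlap, but the lowest Sh-NC library was only 0.39 FPKM above the highest Sh-YAP1 library. MBNL1, the most abundant of the family with a mean of 59.0 FPKM, varied from 40.8 to 73.1 FPKM within Sh-NC and from 52.9 to 80.9 FPKM within Sh-YAP1 (log2 fold change 0.26, adjusted p 0.586). CELF1 was at 22.5, 21.8 and 20.6 FPKM in Sh-NC and at 28.0, 22.8 and 23.2 FPKM in Sh-YAP1, higher without overlap by a margin of 0.24 FPKM (log2 fold change 0.18, adjusted p 0.341). RBFOX2 (log2 fold change 0.10) and QKI (log2 fold change -0.12) overlapped between the groups.

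**Figure D2:**
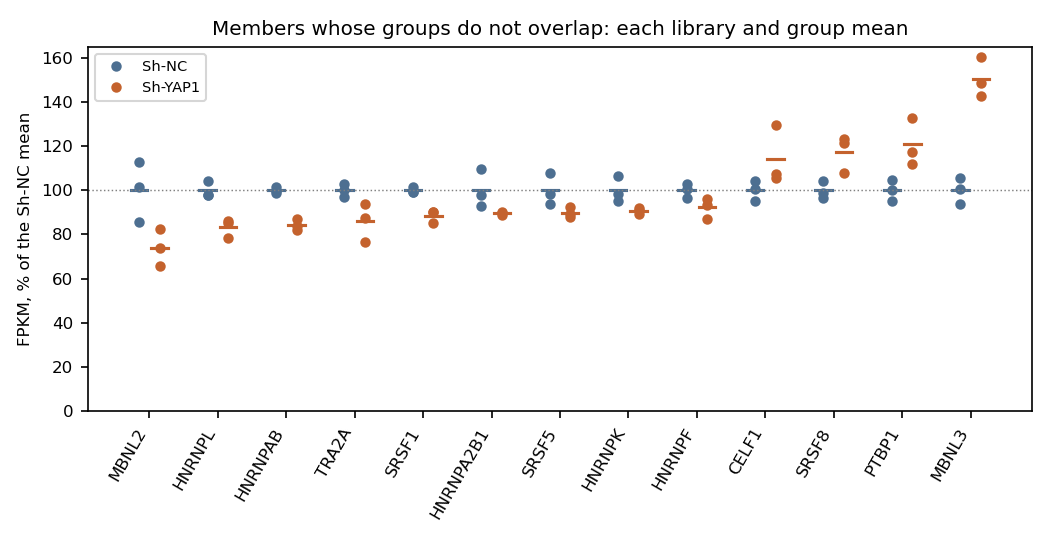
FPKM of each library as a percentage of the Sh-NC mean of the gene, for the 13 splicing factors whose groups do not overlap; points are libraries and bars are group means. MBNL2 is the member with the lowest Sh-YAP1 mean, 0.740 times the Sh-NC mean, and MBNL3 is the member with the highest Sh-YAP1 values, 1.504 times the Sh-NC mean.

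YAP1 acts on DNA through the TEAD factors, which bind the letters GGAATG. RefSeq promoter windows on GRCh38.p14, from 250 bases before to 50 bases after a start site, were matched by symbol for 34 of the 41 genes (57 windows), and SRSF2, TRA2A, HNRNPA1, RBFOX2, QKI, ESRP1 and ESRP2 had none. Of these windows, 7.02% held GGAATG or its reverse complement CATTCC, beside 14.0% of all 35116 windows, and 4 of the 34 genes (11.8%) had such a window, beside 16.7% of all genes with a window. The 4 members with a match are shown with 12 bases on each side and the motif in capitals, because 1 of them, HNRNPL, is among the members nearest to a call and the other three had log2 fold changes of 0.02 to -0.05. These members were chosen after their values were seen, and the sequences are 5′ to 3′ on the minus strand, on which all 4 genes lie.
HNRNPL (chr19:38852471-38852500, 141 bases before the start site): cctggtttcctcCATTCCcccgcggggcga
HNRNPC (chr14:21269461-21269490, 36 bases before): ggaagattctcaGGAATGgggcggggacta
HNRNPA0 (chr5:137754560-137754589, 214 bases before): gtggggcgctcgGGAATGaaagtgggctgg
HNRNPH1 (chr5:179634964-179634993, 197 bases before): gggaggagaggaGGAATGtgcaagctcagc
The windows of MBNL2 and MBNL3 held neither form of the motif. A match describes letters only, and no binding was measured in these libraries.

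The spread within groups set what could be seen for several members. The pooled SD within groups, on the log2(FPKM + 1) scale, had a median of 0.11 over the members and 0.15 over all genes tested, and it exceeded 0.3 for 5 members (12.8%) and for 15.1% of all genes. The 5 members were HNRNPH2, SRSF4, SRSF6, SRSF2 and MBNL1. HNRNPH2 was the widest: it was at 61.5, 10.3 and 8.30 FPKM in Sh-NC and at 9.18, 71.1 and 8.77 FPKM in Sh-YAP1. A single library of each group was high and the other two were low. RPL36A-HNRNPH2, the read-through gene that joins HNRNPH2 to its upstream neighbour, showed the opposite order, at 0, 39.9 and 43.4 FPKM in Sh-NC and at 42.8, 6.11 and 50.1 FPKM in Sh-YAP1. In GENCODE 29 the exons of the read-through gene cover 362 of the 2223 exon bases of HNRNPH2 (16.3%). Summed, both genes were at 61.5, 50.2 and 51.7 FPKM in Sh-NC and at 52.0, 77.2 and 58.9 FPKM in Sh-YAP1, a much narrower range than HNRNPH2 alone. How the fragments were split between the genes was not tested.

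**Figure D3:**
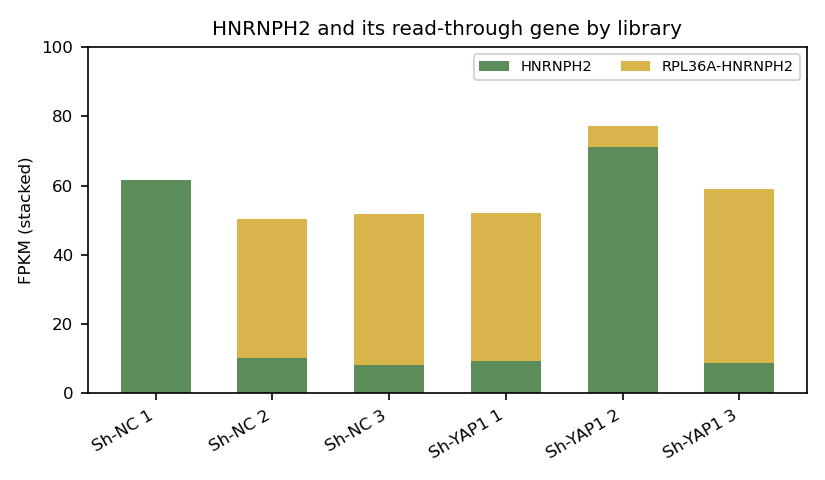
FPKM of HNRNPH2 and of the read-through gene RPL36A-HNRNPH2, stacked, in each of the 6 libraries. HNRNPH2 is above 60 FPKM in Sh-NC replicate 1 and Sh-YAP1 replicate 2 and near 10 FPKM or lower in the other libraries, where the read-through gene is at 39.9 FPKM or more.

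A switch of transcripts would show in the rows of a gene rather than in its total. The deposited values have several rows per gene, each a transcript, with the gene identifier but no transcript name, so rows are numbered here in listed order within their gene and the number is only a label. The 41 genes had 557 rows, of which 402 had a mean of at least 0.1 FPKM and were tested. None had an adjusted p under 0.05 in limma, beside 0.0515% of all rows tested (40 of 77655), and 24 (5.97%) had an unadjusted p under 0.05, beside 6.12% of all rows. The share of each row in its gene total was tested next, on the arcsine square root scale. None of 399 member rows in 37 genes was called, as for all rows (0%, 0 of 69339, the smallest adjusted p being 0.0656), and 14 member rows (3.51%) had an unadjusted p under 0.05, beside 4.6% of all rows.

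The rows with the clearest differences were in CELF1 and MBNL2, named after their values were seen. CELF1 row 2 was at 0.57, 1.52 and 0.86 FPKM in Sh-NC and at 5.16, 4.85 and 5.07 FPKM in Sh-YAP1. It was higher in every Sh-YAP1 library, with an adjusted p of 0.191 for its level and 0.425 for its share of the gene. CELF1 row 1 was at 2.24, 0.83 and 0.46 FPKM in Sh-NC and at 0 in the 3 Sh-YAP1 libraries. Row 3, which led CELF1 in all 6 libraries, held 50.2% ± 2.6 (SD, n = 3) of the gene in Sh-NC and 36.7% ± 7.7 (SD, n = 3) in Sh-YAP1.

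MBNL2 row 1 was at 3.80, 6.11 and 5.38 FPKM in Sh-NC and at 0.97, 0.76 and 1.51 FPKM in Sh-YAP1, with an adjusted p of 0.251 for its level and 0.472 for its share. It was lower in every Sh-YAP1 library. MBNL2 row 2 held 73.2%, 71.8% and 70.8% of the gene in Sh-YAP1 but 64.0%, 10.7% and 20.4% in Sh-NC, so Sh-NC replicate 1 was close to the Sh-YAP1 libraries and the other two were not. MBNL2 row 3 was at 0, 6.38 and 4.62 FPKM in Sh-NC and at 1.77, 1.82 and 0.86 FPKM in Sh-YAP1, and its groups overlapped. The means of rows 1 and 3 were lower in Sh-YAP1 and that of row 2 was higher, although the Sh-NC and Sh-YAP1 values of row 2 overlapped.

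In MBNL3, row 1 went from 1.00, 1.06 and 1.05 FPKM in Sh-NC to 0.88, 0.34 and 0 FPKM in Sh-YAP1 while the total of the gene was higher. Row 2, the row with the highest mean, was at 0.58, 0.56 and 0.70 FPKM in Sh-NC and at 0.98, 0.68 and 1.01 FPKM in Sh-YAP1, so its groups overlapped. It held 29.4%, 29.8% and 40.0% of the gene in Sh-NC and 36.8%, 24.5% and 33.8% in Sh-YAP1. Other rows differed by library within Sh-YAP1: row 7 was at 1.51 FPKM in Sh-YAP1 replicate 2 and at 0 in all others, and row 6 was at 0.70 and 1.06 FPKM in Sh-YAP1 replicates 1 and 3 and at 0.04 in Sh-YAP1 replicate 2.

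The leading row, the row with the highest FPKM of a gene, was compared between the groups in genes with at least 2 tested rows. It changed from 1 row in all Sh-NC libraries to another in all Sh-YAP1 libraries in 0 of 37 members and in 0.485% of all genes (55 of 11347). It was the same in all 6 libraries in 18 members (48.6%), beside 44% of all genes, and in the other 19 members it differed between libraries of the same group. In 1 of these, MBNL3, row 1 led in all Sh-NC libraries and in no Sh-YAP1 library, where rows 2, 7 and 6 led. Without Sh-YAP1 replicate 2 the count of members whose leading row changed from 1 group to the other was 1, SRSF11, whose row 1 was at 2.27, 4.52 and 2.58 FPKM in Sh-NC and at 13.8, 4.81 and 13.5 FPKM in Sh-YAP1. By family, the same row led in all 6 libraries in 8 of 13 SR proteins, in 9 of 18 hnRNPs and in 1 of 6 regulated factors, which was CELF1. The share of the row with the highest mean moved by less than 5 percentage points between the group means in 22 of the 37 members and by 10 points or more in 10, with a median of 3.5 points.

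The steady members show what a stable composition looks like in these values. In HNRNPR row 6 held 86.5% ± 1.0 (SD, n = 3) of the gene in Sh-NC and 84.8% ± 1.3 (SD, n = 3) in Sh-YAP1. In HNRNPF row 3 held 78.3% ± 0.6 (SD, n = 3) in Sh-NC and 78.6% ± 2.4 (SD, n = 3) in Sh-YAP1. In HNRNPA3 row 3 held 69.8% ± 0.8 (SD, n = 3) in Sh-NC and 68.9% ± 1.0 (SD, n = 3) in Sh-YAP1. All 3 genes kept their composition within a few percentage points in every library.

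Other members changed composition from library to library inside a group. SRSF6, an SR protein that promotes exon inclusion, had row 2 at 0.65, 69.7 and 66.0 FPKM in Sh-NC and at 0.03, 46.2 and 0.11 FPKM in Sh-YAP1. The 3 libraries with row 2 near 0 had row 1 at 44.9, 61.3 and 43.8 FPKM, and the other three had it at 7.40, 7.97 and 17.2 FPKM. The SRSF6 total followed the same split, being 59.6, 119 and 120.5 FPKM in Sh-NC and 73.6, 99.1 and 61.2 FPKM in Sh-YAP1, so the negative log2 fold change of SRSF6 (-0.31, adjusted p 0.607) rested on 1 low library in Sh-NC and 2 in Sh-YAP1. SRSF4 row 3 was at 25.8 FPKM in Sh-NC replicate 3 and at 24.0 FPKM in Sh-YAP1 replicate 2, and at 4.70 FPKM or less in the other libraries, and the SRSF4 total was 30.9 and 27.2 FPKM in those 2 libraries and 11.3 to 13.9 FPKM in the others (log2 fold change 0.00). In SRSF2, row 8 was at 29.97, 0 and 19.7 FPKM in Sh-NC and at 27.2, 0 and 0 FPKM in Sh-YAP1, and the gene had a log2 fold change of -0.10.

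HNRNPU, a nuclear scaffold protein that binds RNA and chromatin, was at 149, 88.3 and 131 FPKM in Sh-NC and at 154, 148 and 149 FPKM in Sh-YAP1 (log2 fold change 0.32, adjusted p 0.358). Its row 2 held 67.9% of the gene in Sh-NC replicate 1 and 68.6%, 67.0% and 67.5% in the Sh-YAP1 libraries, but 7.9% and 0.7% in Sh-NC replicates 2 and 3. Row 13 was at 60.2 FPKM in Sh-NC replicate 3 and at 0 in every other library. Row 3 held 7.04% of HNRNPU in Sh-NC replicate 1 and 22.1% to 26.3% in the other libraries, so Sh-NC replicate 1 was close to the Sh-YAP1 libraries in row 2 and not in row 3.

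**Figure D4:**
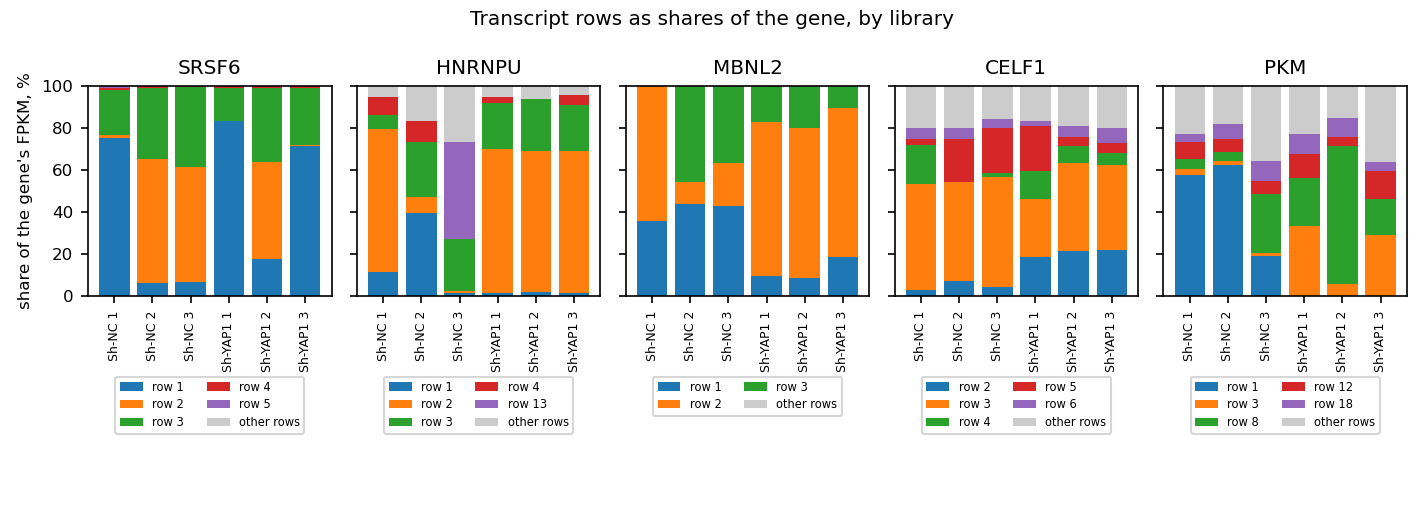
Share of the gene total (percent of FPKM) held by the rows with the highest mean share in SRSF6, HNRNPU, MBNL2, CELF1 and PKM, in each of the 6 libraries; grey is the sum of the other rows. Row 2 of HNRNPU holds 67.0% to 68.6% in Sh-NC replicate 1 and the Sh-YAP1 libraries and 7.9% or less in the other two, and SRSF6 falls into the same 2 patterns in both groups.

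The distance between the row shares of 2 libraries, the percentage points of share that would have to move to turn 1 into the other, put these patterns on a common scale. Its median over the members was 18.8 points between libraries of the same group and 24.7 points between libraries of different groups, and the corresponding medians over all 11347 genes were 24.7 and 25.4 points. Taken within each gene, the distance between groups minus that within groups had a median of only 0.29 points over the members, beside -0.34 points over all genes. The distance between groups exceeded that within groups in 20 of 37 members (54.1%) and in 42.3% of all genes. In no member was every distance between groups larger than every distance within a group, as it was in 0.687% of all genes. MBNL2 had the largest excess of the members, 45.6 points between against 21.5 points within groups, and 1.31% of all genes had an excess at least as large. It was followed by MBNL3 (51.6 against 37.7 points), HNRNPU (49.95 against 38.6 points) and CELF1 (32.8 against 22.6 points). HNRNPM, MBNL1 and SRSF4 had the largest excess the other way, with 36.02, 50.4 and 50.6 points within groups against 27.3, 42.1 and 44.5 points between them.

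**Figure D5:**
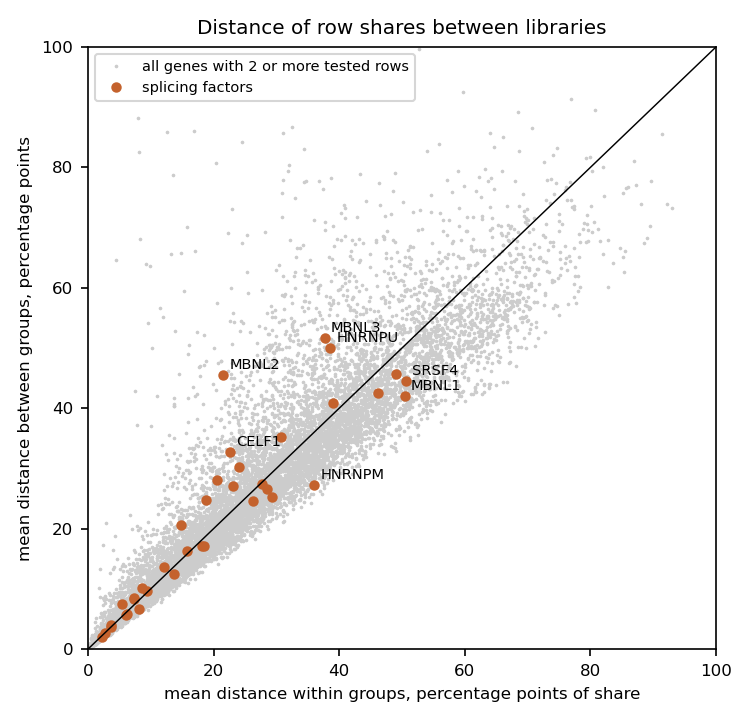
Mean distance of row shares (percentage points) between libraries of different groups against that between libraries of the same group, for the 37 splicing factors with at least 2 tested rows (orange) and all 11347 such genes (grey), with the line of equality. MBNL2, at 21.5 points within and 45.6 points between groups, lies farthest above the line among the members.

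The genes on which these factors are known to act were read the same way. Of 34 genes with known regulated exons, 33 were measured, and 4 were called at the gene level, beside 3.38% of all genes. NUMB, a Notch inhibitor, SLC37A2, a sugar phosphate transporter, and MKNK2, a kinase of the cap-binding protein eIF4E, rose (log2 fold changes 0.60, 0.77 and 0.99). Leaving out 1 library at a time ended the call of NUMB and of MKNK2 in 4 of the 6 cases and that of SLC37A2 in 3, with no change of direction. Of 363 rows of these genes, 1 was called by its level in limma, beside 0.0515% of all rows. By their share 0 were called and 13 (3.58%) had an unadjusted p under 0.05, beside 4.6% of all rows, and the leading row changed in 0 of 33 genes. The called row was PKM row 1. PKM, the pyruvate kinase gene whose alternative exons are chosen by PTBP1, HNRNPA1 and HNRNPA2B1, had row 1 at 1119, 1489 and 356 FPKM in Sh-NC and at 0 in all Sh-YAP1 libraries (adjusted p 0.0121, and 0.292 for its share). The gene total was 1948, 2393 and 1884 FPKM in Sh-NC and 2286, 1321 and 2433 FPKM in Sh-YAP1, with overlap (log2 fold change -0.09). The FPKM of the other rows in Sh-YAP1 differed by library: row 3 was at 761, 75.7 and 708 FPKM, row 2 at 341, 0.01 and 636 FPKM and row 8 at 525, 870 and 410 FPKM. With no transcript names, it cannot be said which exon any of these rows holds.

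The other genes of the splicing pathway are read against all genes, of which 3.38% were called, 21.9% had an unadjusted p under 0.05 and 7350 of 14770 had a positive value. Of 58 core spliceosome genes, 1 was called, the branch-site factor subunit SF3B2, which rose from 77.6, 78.2 and 74.9 FPKM in Sh-NC to 101.2, 98.9 and 95.6 FPKM in Sh-YAP1 (log2 fold change 0.35, adjusted p 0.0346). The groups did not overlap for 24 of the 58 (41.4%), 17 lower (29.3%) and 7 higher (12.1%), beside 29.4% of all genes, 14.7% lower and 14.6% higher, and the median log2 fold change was -0.08. Of genes that averaged 20 FPKM or more, 37.7% did not overlap, 23.6% lower and 14.0% higher. Of 10 kinases, phosphatase-linked and import factors that act on SR proteins, 0 were called in limma, 1 (10%) had an unadjusted p under 0.05 and 9 had positive values, with a median of 0.11. Of 40 identifiers of other splicing regulators measured, among them 2 of MATR3 with values of opposite sign (0.68 and -0.75), 2 were called, 1 of them TAF15, an RNA-binding protein that also takes part in transcription, which rose from 108, 103 and 99.5 FPKM to 136, 131 and 127 FPKM (log2 fold change 0.34, adjusted p 0.0467). The calls of SF3B2 and TAF15 were lost whichever library was left out, with adjusted p of 0.0823 to 0.117 and 0.0981 to 0.138, and the directions held. Of 16 nonsense-mediated decay genes, 0 were called, 3 (18.8%) had an unadjusted p under 0.05 and UPF2 came nearest (log2 fold change 0.47, adjusted p 0.0571).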

How the data were processed

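Total RNA of 3 Sh-NC and 3 Sh-YAP1 libraries of MDA-MB-231 cells was sequenced on Illumina protocols. The authors deposited FPKM, 1 value per transcript row and library with 2 decimals, and no counts, so depth is unknown. The submitters' processing notes name HISAT2 2.0, Bowtie 0.12.2 and hg19. The program that gave FPKM is not given in the sources used here. Rows were summed per gene identifier, and symbols and GRCh38 positions came from GENCODE 29 and a table of gene names (60588 of 60612 identifiers matched a symbol). Genes averaging 0.5 FPKM or more and rows averaging 0.1 FPKM or more were compared on log2(FPKM + 1), and row shares on the arcsine square root scale, with limma 3.58.1 (R 4.3.3, mean-variance trend, two-sided, Benjamini-Hochberg over all features tested, threshold 0.05), checked on simulated data. Condition was the only factor, and the deviations of libraries of the same number correlated at -0.028 to 0.062 between the groups, so the numbers were not taken as pairs. Errors are SE or SD as marked. The members and lists were chosen with earlier results of these data known. Values in every library were given for called members, for members without overlap and a log2 fold change of at least 0.3 in size, for the most and least abundant of each family, for those beside the minimum, for YAP1 and for up to 4 called genes of each other list. HNRNPAB, HNRNPL, PTBP1, SRSF1, SRSF3, CELF1 and the members with wide groups were added after their values were seen. The alternatives were other pseudocounts, quantile normalization, median centring, no trend, other filters, a replicate block, sums without low or changed rows and leaving out each library. Some genes of these lists are not reported here.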

Additional observations from a re-analysis of the deposited data

How the results depend on the processing

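No splicing factor gene, no row of a splicing factor and no row share of a splicing factor was called under any alternative run, including each library left out. The median log2 fold change of the members was -0.023 with quantile normalization in place of -0.072. It kept its sign under the other alternatives for which it was taken (between -0.092 and -0.044). It was not taken for sums without the most changed row or for HNRNPH2 summed with its read-through gene. Centring each library on its median moved the median of all genes to -0.018. Over all genes, 499 were called, and 103 without a filter on low values and 80 to 170 with 1 library left out. A replicate block, fitted as a second factor, left 1 gene called with 2779 at an unadjusted p under 0.05, and 2 of 6 libraries correlated best with a library of their own number. The core spliceosome count of 1 became 0 without the trend, without a filter, with the replicate block and with any library left out. The count of other splicing regulators, 2, became 1 with quantile normalization or median centring and 0 without the trend, without a filter, with the block and with any library left out. Rows called over all rows were 40, and 0 with the block, 62 at a mean of at least 0.5 FPKM, 74 without the trend and 75 with a pseudocount of 0.1. Row shares called over all rows were 0, and 35 as log2 ratios, 44 at a mean of at least 0.5 FPKM and 46 without the trend, where 1 as a log2 ratio was in a gene with known regulated exons, PKM row 1. The leading row changed in 0 to 1 members with 1 library left out. Of 803 values of single genes under an alternative, 71 lost a call, all of genes outside the members, and 44 changed sign.

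Without the row whose mean differed most, the sum by construction lost the row that moved it most, and the log2 fold change turned to -0.073 for CELF1, 0.081 for HNRNPA1, -0.53 for HNRNPC, 0.26 for HNRNPD, -0.031 for HNRNPDL, 0.028 for HNRNPH1, 0.016 for HNRNPH3, 0.062 for HNRNPK, 0.13 for HNRNPR, -0.71 for HNRNPU, 0.12 for MBNL2, -0.40 for PTBP3, 0.034 for QKI, -0.013 for RBFOX2, -0.17 for SRSF11, 0.15 for SRSF2 and 0.20 for SRSF6. Quantile normalization turned the sign of 3 members, to 0.11 for HNRNPA1, 0.027 for HNRNPH3 and 0.016 for HNRNPR, and median centring turned that of SRSF4, to -0.015. Leaving out 1 library turned the sign of some genes near 0, and the values over the 6 cases ran from -0.91 to 0.91 for HNRNPH2, from -0.35 to 0.44 for SRSF4, from -0.34 to 0.20 for SRSF2, from -0.25 to 0.19 for PKM, from -0.059 to 0.081 for PTBP3, from -0.13 to 0.074 for HNRNPH1, from -0.057 to 0.069 for HNRNPH3, from -0.055 to 0.063 for HNRNPC, from -0.28 to 0.046 for QKI, from -0.25 to 0.045 for HNRNPD, from -0.063 to 0.037 for HNRNPA1, from -0.090 to 0.023 for HNRNPA0, from -0.091 to 0.014 for HNRNPA3 and from -0.062 to 0.014 for HNRNPR. HNRNPH2 summed with its read-through gene, chosen after seeing the data, had a log2 fold change of 0.19 (adjusted p 0.538). The cause of these changes was not tested. Row shares that differ widely within a group limit what 3 libraries a group can show of a switch, and the fragment depth is unknown.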
